A study of Mus musculus with 9 samples.

Results

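Gene expression in the right lung of BL6 mice (C57/BL6, a common inbred laboratory strain) was compared between 4 weeks of chronic hypoxia and normoxia. The comparison rested on the arrays titled Hypoxic BL6 (2 arrays, numbered 2 and 5) and Normoxic BL6 (1 array, numbered 1), which are 3 of the 9 arrays analysed. The hypoxic mice had lived in a hypobaric chamber at 50 kPa and the normoxic mice at 85 kPa, the pressure at the altitude of the laboratory, so both groups breathed air below sea-level pressure. The same design was run in FVB/N and SV129 mice, with 2 hypoxic arrays and 1 normoxic array per strain. No genotype, age, sex or treatment other than pressure is given in the labels. They do not say whether an array holds a single mouse or a pool, nor that the arrays of a group came from separate mice, so the spread behind every p-value may be a technical one. Each array reports 1 signal per probe set, a group of short probes for a transcript.

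Low oxygen makes the small pulmonary arteries constrict, and over weeks their walls thicken with smooth muscle and matrix and the pressure in the right heart rises. Cells sense the oxygen through hypoxia-inducible factors (HIF), which switch on genes for glycolysis, red cell production and vessel growth. The lung also runs a circadian clock, in which ARNTL (BMAL1) with CLOCK or NPAS2 drives the Per, Cry, Nr1d and Dbp genes, and the PER, CRY and NR1D proteins repress the drivers in turn. The clock genes of the forward limb and those of the repressing limb therefore peak at opposite times of the day. The labels give no time of day for the collection of the lungs.

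Of 18 clock genes measured, 9 differed by at least 1 log2 unit on both hypoxic BL6 arrays. The start regions of 5 clock genes are shown with the motifs that their textbook regulators read. Each region shown holds at least 1 motif, so they are not typical of the clock genes. Tef was lower on both hypoxic arrays but is not among the 9. The windows are 300 bases long, from RefSeq on mouse build GRCm38.p6, 5′ to 3′ on the strand of the gene. Capitals mark 3 motifs searched on both strands: the E-box CACGTG, read by ARNTL with CLOCK or NPAS2; the D-box TTANGTAA, read by DBP, TEF, HLF and, as a repressor, NFIL3; and the half-site AGGTCA, read by the ROR and NR1D receptors. The first 3 sequences belong to genes that were lower in hypoxic BL6 lung and the others to genes that were higher.
Per1, chr11:69098699-69098998, plus strand: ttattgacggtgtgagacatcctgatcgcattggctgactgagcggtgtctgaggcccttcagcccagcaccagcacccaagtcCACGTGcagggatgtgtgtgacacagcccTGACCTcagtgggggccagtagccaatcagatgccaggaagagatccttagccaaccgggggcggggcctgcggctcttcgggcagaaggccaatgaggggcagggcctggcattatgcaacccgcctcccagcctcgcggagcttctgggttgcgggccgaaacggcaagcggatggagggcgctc
Per3, chr4:151044616-151044915, minus strand: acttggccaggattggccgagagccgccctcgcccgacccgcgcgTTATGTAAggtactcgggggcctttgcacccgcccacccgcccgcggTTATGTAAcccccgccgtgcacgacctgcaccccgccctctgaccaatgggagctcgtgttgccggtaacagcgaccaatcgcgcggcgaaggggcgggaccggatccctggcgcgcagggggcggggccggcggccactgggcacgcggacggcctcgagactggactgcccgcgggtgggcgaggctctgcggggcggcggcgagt
Tef, chr15:81811164-81811463, plus strand: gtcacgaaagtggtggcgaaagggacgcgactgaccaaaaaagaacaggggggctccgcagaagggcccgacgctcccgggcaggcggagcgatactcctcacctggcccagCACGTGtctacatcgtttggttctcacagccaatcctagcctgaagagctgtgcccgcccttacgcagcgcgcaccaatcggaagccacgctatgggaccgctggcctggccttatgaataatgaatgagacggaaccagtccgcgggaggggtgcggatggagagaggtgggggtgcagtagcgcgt
Arntl, chr7:113207261-113207560, plus strand: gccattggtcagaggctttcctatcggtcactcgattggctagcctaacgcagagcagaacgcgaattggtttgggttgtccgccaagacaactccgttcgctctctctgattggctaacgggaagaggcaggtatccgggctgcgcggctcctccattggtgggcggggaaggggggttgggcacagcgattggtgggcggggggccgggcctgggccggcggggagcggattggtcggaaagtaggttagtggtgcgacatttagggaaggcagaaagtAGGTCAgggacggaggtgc
Nfil3, chr13:52980990-52981289, minus strand: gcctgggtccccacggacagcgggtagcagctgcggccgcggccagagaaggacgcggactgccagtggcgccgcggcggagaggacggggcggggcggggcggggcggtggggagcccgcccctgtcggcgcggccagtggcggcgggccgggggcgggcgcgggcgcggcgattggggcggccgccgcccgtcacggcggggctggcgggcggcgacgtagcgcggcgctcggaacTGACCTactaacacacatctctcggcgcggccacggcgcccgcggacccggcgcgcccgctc
Of the 18 genes, 15 had a start region in the RefSeq table, with 20 windows among them. The E-box lay in windows of 4 genes (Per1, Tef, Cry1 and Ciart), the D-box in Per3 alone and the half-site in 5 (Arntl, Nfil3, Nr1d2, Per1 and Clock). The windows of Npas2, Dbp and Hlf, which are among the 9, held none of the 3 motifs and are not shown. A further window of Arntl and another of Per1 held none either. Over all 32851 windows of the same length, 7.15% held the E-box, 2.32% the D-box and 16.3% the half-site. The clock counts are by gene, and some of these genes had more than 1 window. They therefore cannot be set directly against these shares by window. These matches describe the letters of the windows and are not measured binding.

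Signals were taken as log2(signal + 16) after quantile normalization, and a difference is hypoxic minus normoxic on that scale, which understates the difference of dim genes. A gene was read through its brightest probe set, and 12895 genes lay past a filter on dim signals. The 3 BL6 arrays held lung tissue by their markers: 24 of 26 markers of alveolar, airway, endothelial and macrophage cells were measured, all 24 past the filter, with a median level of 13.04 on the normoxic array against 9.32 for all genes. Hypoxic BL6 array 2 also carried kidney transcripts. The 23 kidney markers averaged 11.39 on it and 6.67 on hypoxic array 5, and 6.92 on the normoxic array. Of these 23, 21 were at least 1 log2 unit higher on array 2 than on the normoxic array and 3 were on array 5, while 8 were higher on both. The normoxic FVB/N array carried kidney transcripts too (12.35), while the other arrays of the series lay between 6.33 and 6.92, so SV129 is the cleaner strain to set beside BL6. For this reason a gene is described in a direction only where both hypoxic BL6 arrays were above, or both below, the normoxic one, before and after quantile normalization. The arrays also differed by condition in control probes: the signal of the 18S ribosomal RNA 5′ probe set was 210 and 111 on the hypoxic BL6 arrays and 1682 on the normoxic one, and over the series it ran from 74 to 246 on the 6 hypoxic arrays and from 1682 to 12239 on the 3 normoxic arrays. The hybridization control bioB (3′ probe set) gave 348 and 470 on hypoxic BL6 against 185, and bioD (3′) gave 5536 and 6468 against 12805. Pressure and the preparation of the arrays therefore cannot be told apart in any strain.

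**Figure D1:**
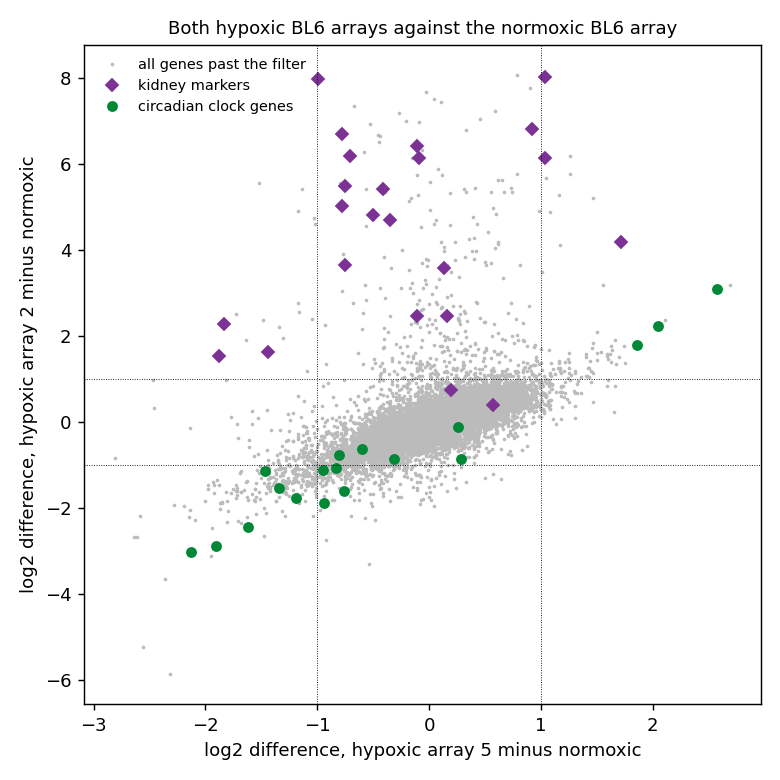
Each grey point is 1 of the 12895 genes, placed by its log2 difference from the normoxic BL6 array on hypoxic array 5 (horizontal) and on hypoxic array 2 (vertical; the scales differ); dotted lines mark 1 log2 unit. The purple kidney markers lie highest on array 2, up to 8.02 for Slc12a1 against 1.04 on array 5, while the green clock genes lie along the diagonal at both ends.

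Most genes differed little and the few tested calls were all falls. In limma, with 1 spread estimated from the 3 pairs of hypoxic arrays and the lone normoxic array assumed to vary like them, 0 of 27022 probe sets rose (0%) and 4 fell (0.0148%) at a Benjamini-Hochberg adjusted p below 0.05, and 3371 had an unadjusted p below 0.05, 1236 of them higher. The 4 belonged to Ddr1, Rgcc, Ywhaz and Prss23. Without hypoxic BL6 array 2, without hypoxic FVB/N array 2 or without hypoxic FVB/N array 6 none was called. Without hypoxic BL6 array 5 there were 195 calls, 172 of them higher. Without hypoxic SV129 array 2 there were 184 calls, 163 of them lower, and without SV129 array 5 there were 165, with 148 lower.

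The 4 calls were not shared by all the probe sets of their genes. The called probe sets of Ddr1 and Prss23 have names ending in x_at, a kind that can also bind related transcripts. Ddr1, a receptor tyrosine kinase for collagen, read 9.32 and 9.35 on hypoxic arrays 2 and 5, in that order here and below, and 11.99 on the normoxic array, a fall of 6.28-fold (log2 −2.65 ± 0.228 SE, 2 hypoxic arrays and 1 normoxic array; limma adjusted p = 0.0396). Its 6 other probe sets past the filter differed by −0.67 to 0 and 4 of them were lower on both arrays. Rgcc, a regulator of the cell cycle found in endothelium, read 10.98 and 10.87 against 13.15, a fall of 4.66-fold (limma adjusted p = 0.0396), while its brighter probe set read 11.78 and 11.90 against 12.58. Prss23, a secreted serine protease of vascular tissue, read 8.77 and 9.16 against 11.81, a fall of 7.16-fold (limma adjusted p = 0.0396). Its other 2 probe sets past the filter were lower on both arrays too, at −1.60 and −0.72. Ywhaz, a 14-3-3 adaptor protein, read 6.95 and 6.86 against 9.95 in the called probe set (8.28-fold; limma adjusted p = 0.0396), but its brightest read 13.35 and 13.71 against 13.44, with the normoxic array between them. In SV129, whose arrays are separate, the same 4 probe sets were lower on both hypoxic arrays, with log2 differences of −1.84 for Ddr1, −1.31 for Rgcc, −1.28 for Ywhaz and −1.93 for Prss23, none past the threshold there (smallest limma adjusted p of any SV129 probe set 0.356). In FVB/N, Ddr1 (−1.42), Ywhaz (−1.64) and Prss23 (−0.71) were lower on both hypoxic arrays, whereas the Rgcc probe set was slightly higher on both, at 0.15 and 0.09.

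Without a test, 5104 genes (39.6%) were higher on both hypoxic BL6 arrays than on the normoxic one, 4368 (33.9%) were lower and 3423 were split. By at least 1 log2 unit on both arrays, 74 genes (0.574%) were higher and 229 (1.78%) lower. In SV129, 47 of the 74 (63.5%) were also higher on both hypoxic arrays, against 29.2% of all genes, and 205 of the 229 (89.5%) were also lower, against 28.8% of all genes. In FVB/N, 43 of the 74 (58.1%) were also higher, against 49.4% of all genes, and 21 were lower on both arrays. Of the 229, 146 (63.8%) were also lower there, against 31.7% of all genes, and 39 were higher on both. The arrays of both strains showed the same difference in control probes between conditions, and its part in this was not tested. Probe sets whose name ends in x_at, which can also bind related transcripts, were lower by 1 log2 unit on both BL6 arrays in 8.79% of cases, against 2.39% for the plain kind. Other probe sets of the 229 lower genes lay on the same side in 57.7% of 222 cases and by 1 log2 unit in 14%. For the 74 higher genes these shares were 54.1% and 14.8% of 61. Of all 27022 probe sets past the filter, 9900 were lower on both arrays, 788 of them by 1 log2 unit. Of the same 27022, 10043 were higher on both, 238 of them by 1 log2 unit. The other probe sets thus shared the side more often than probe sets at large. A difference in a single probe set is therefore often not shared by the rest of its gene. Of 121 genes examined one by one, 63 lay to 1 side and had other probe sets past the filter; in 38 of these all lay on the same side, and in 17 at least 1 lay on the opposite side.

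**Figure D2:**
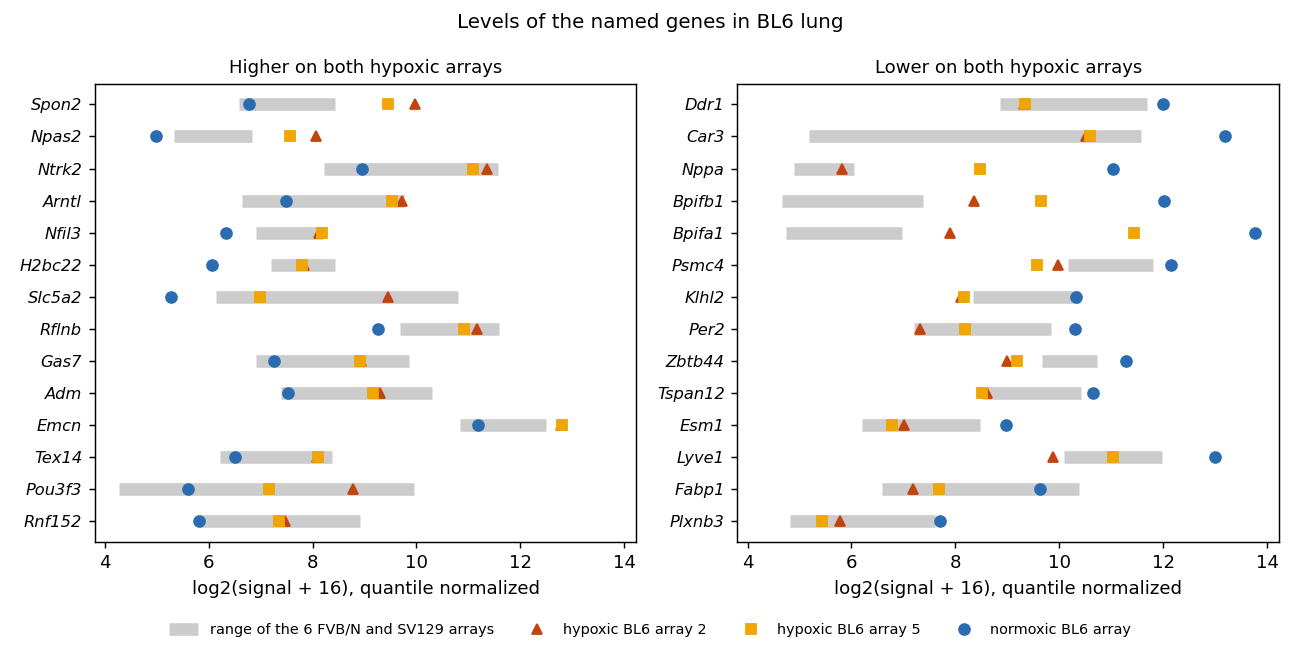
Levels, as log2(signal + 16) after quantile normalization, of the 14 genes highest and the 14 lowest by the smaller difference of both hypoxic arrays (Ddr1, the gene past the threshold, first); grey bars span the 6 arrays of FVB/N and SV129. In 12 of the 14 lower genes, Ddr1 and Lyve1 among them, the normoxic BL6 array is the highest of all 9 arrays, whereas Spon2, Npas2 and Emcn are higher on both hypoxic BL6 arrays than on any other.

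Among the 14 genes that were highest on both hypoxic arrays, 3 were clock genes (below), and none passed the threshold (limma adjusted p from 0.0612 to 0.54). Spon2, a secreted protein of the extracellular matrix, read 9.97 and 9.46 against 6.78 on the normoxic array (log2 2.94 ± 0.435 SE). Both hypoxic BL6 arrays stood above every other array of the series, whose FVB/N and SV129 levels ran from 6.58 to 8.43. Ntrk2, the receptor of brain-derived neurotrophic factor, read 11.35 and 11.08 against 8.96, its second probe set read 11.35 and 11.05 against 8.42, and SV129 differed by a similar 1.93. Emcn, the endothelial sialomucin endomucin, read 12.78 and 12.80 against 11.19 (log2 1.60 ± 0.161 SE; limma adjusted p = 0.0612). Its SV129 difference was 1.18, again with both hypoxic arrays higher. Adm, which encodes the vasodilator peptide adrenomedullin and is a classic HIF target, read 9.29 and 9.16 against 7.52, with a second probe set at 8.89 and 8.72 against 8.11. Its spread over the hypoxic pairs of the series was wide (SE 1.01), and hypoxic SV129 arrays 2 and 5 lay on opposite sides of their normoxic array, at −1.27 and 1.62. The brighter Adm probe set has a name ending in x_at.

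The others of this group were of mixed kinds. Rflnb, a partner of the actin cross-linker filamin, read 11.16 and 10.92 against 9.25, but 2 dimmer probe sets differed by only 0.07 and 0.38. Gas7, an actin-binding protein, read 8.94 and 8.91 against 7.26, and H2bc22, a histone H2B gene, 7.83 and 7.80 against 6.06. Both pairs of hypoxic values were close, and the normoxic BL6 array had the lowest H2bc22 level of all 9 arrays. Tex14, known from germ cell bridges, read 8.08 and 8.10 against 6.51, and Rnf152, a lysosomal ubiquitin ligase, 7.46 and 7.35 against 5.81. Slc5a2, the glucose transporter of the proximal tubule, read 9.46 and 6.99 against 5.27, and the transcription factor Pou3f3 read 8.78 and 7.16 against 5.6. Both were higher on array 2, the array with kidney transcripts, than on array 5, and a second Slc5a2 probe set was split, at 4.48 on array 2 and −0.70 on array 5.

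Among the 14 lower genes, Ddr1 passed the threshold and the other 13 did not (limma adjusted p from 0.0612 to 0.521). Esm1 (endocan), made by sprouting endothelium, read 7.02 and 6.79 against 8.98, and Tspan12, a tetraspanin of endothelial Norrin signalling, read 8.61 and 8.51 against 10.65. Both were lower on both arrays of SV129 as well (−1.54 and −2.12 for Esm1), and the BL6 normoxic array was the highest of the 9 for each. Lyve1, the hyaluronan receptor of lymphatic endothelium and some macrophages, read 9.87 and 11.04 against 13, and its second probe set 10.31 and 11.03 against 12.24. Klhl2, an adaptor for a ubiquitin ligase that binds actin, read 8.11 and 8.17 against 10.32, and its second probe set was lower too (−1.51 and −1.15). For Klhl2 both hypoxic BL6 values lay below all other arrays of the series.

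Other probe sets showed smaller differences or none for the next 3 genes. Psmc4, an ATPase of the proteasome, read 9.98 and 9.57 against 12.16, but its other probe set differed by 0.16 and −0.02. Zbtb44, a zinc finger protein, read 9.0 and 9.19 against 11.28 in its brightest probe set (log2 −2.18 ± 0.231 SE) and 7.98 and 8.30 against 8.35 in the other. Fabp1, a fatty acid binding protein, read 7.18 and 7.69 against 9.63, whereas its second probe set was split. Plxnb3, a semaphorin receptor, had 1 probe set past the filter, at 5.78 and 5.43 against 7.71, and its dim one lay on the same side (−1.48 and −0.45).

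The clock genes were low as a list, with a few high. Of 21 listed, 18 were measured, 3 were higher on both hypoxic BL6 arrays and 13 lower, with Clock and Nr1d1 split. Thus 16.7% were higher and 72.2% lower, against 39.6% and 33.9% of all genes. By at least 1 log2 unit on both, 3 were higher and 6 lower, while 0 of 18 passed limma. The median difference was −1.09 on array 2 and −0.82 on array 5, against 0.01 and 0.06 for all genes, and the list was chosen with these data already seen. Whether the lungs were collected at different times of day was not tested, since the labels do not give it.

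The drivers Arntl and Npas2 were high, and most of the Per, Cry and Nr1d genes were low, in hypoxic BL6 lung. Arntl read 9.72 and 9.53 against 7.49, and its second probe set 7.45 and 6.78 against 6.12. Npas2, the partner that can stand in for CLOCK, read 8.07 and 7.56 against 4.98 (log2 2.84 ± 0.484 SE; limma adjusted p = 0.0985), the lowest level among the 9 arrays. Nfil3, the D-box repressor, read 8.12 and 8.19 against 6.34. Read through the brightest probe set, these 3 genes were the only ones of the 18 that were higher on both arrays. Clock itself, whose RNA is known to cycle little, read 9.97 and 10.35 against 10.09. Its next 2 probe sets were higher on both arrays, by 0.48 and 0.56 and by 0.45 and 0.44, and its dimmest was split. Rora, counted as lower, had 3 of its 7 other probe sets past the filter lower on both arrays and 3 higher. Of the period genes, Per2 read 7.31 and 8.18 against 10.31, Per3 7.28 and 8.09 against 9.71 and Per1 8.78 and 8.97 against 10.31. All 5 probe sets of Per3 and all 3 of Per2 past the filter were lower on both arrays. Dbp, an activator at the D-box, read 9.83 and 10.81 against 12.72, with its second probe set at 9.01 and 9.88 against 11.94. Its relatives followed in the same direction, Tef with 11.12 and 11.29 against 12.24 and Hlf with 8.81 and 8.49 against 9.96. Nr1d2 (REV-ERB beta) read 11.30 and 11.87 against 13.06, and Cry1 7.57 and 8.51 against 9.45. Nr1d1 (REV-ERB alpha) was split, at 9.35 and 10.50 against 10.20. The difference was thus larger on array 2 than on array 5 for Per2, Per3, Dbp, Nr1d2 and Cry1, and smaller for Hlf.

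**Figure D3:**
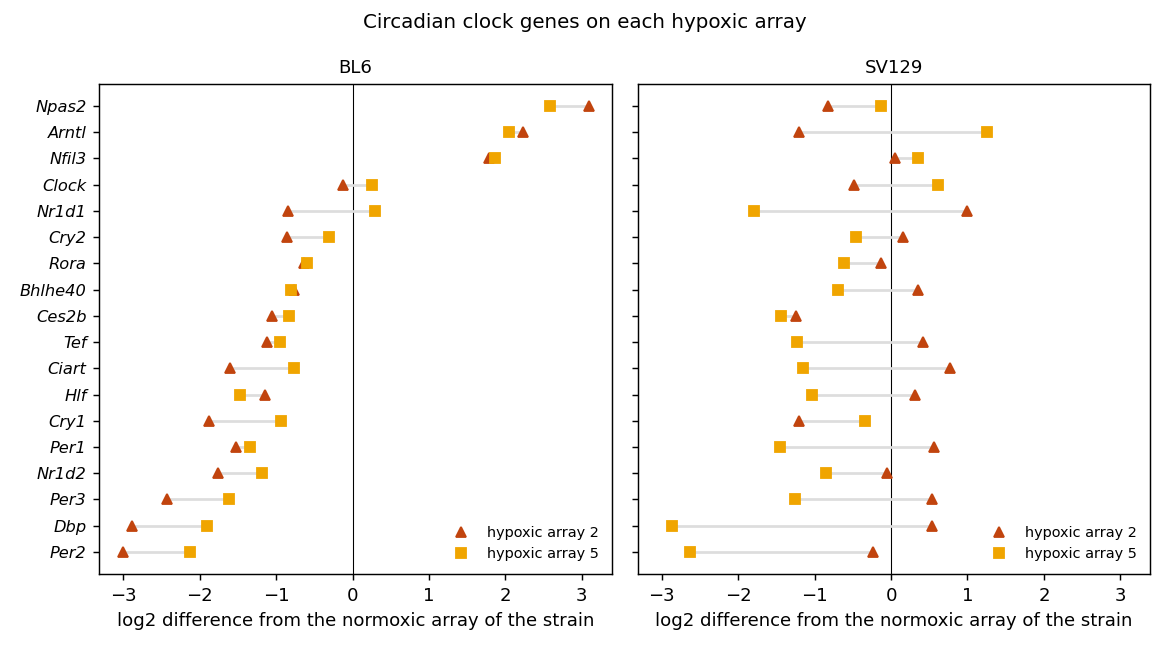
Log2 differences of the 18 clock genes on each hypoxic array from the normoxic array of its strain, BL6 on the left and SV129 on the right, in the order of the BL6 values. In BL6 both arrays show Npas2, Arntl and Nfil3 on the right and 13 genes on the left; in SV129 array 5 shows a like order for Per2 (−2.63) and Dbp (−2.87), and array 2 does not (−0.24 and 0.53).

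In SV129 the hypoxic arrays differed from each other on these genes, with medians of 0.10 on array 2 and −0.94 on array 5. On SV129 array 5 the differences were −2.63 for Per2, −2.87 for Dbp and 1.26 for Arntl, while on array 2 they were −0.24, 0.53 and −1.20. The test of the strain difference in limma passed for none of the genes: for Npas2, higher in BL6 and lower in SV129, it was 3.31 ± 0.685 SE with an adjusted p of 1.

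Fat markers were also lower on the hypoxic BL6 arrays than on the normoxic one, which stood above the whole series. The list averaged 9.21 and 9.34 on the hypoxic BL6 arrays and 10.26 on the normoxic BL6 array. On the 6 arrays of FVB/N and SV129 it averaged from 7.76 to 9.35, so the hypoxic BL6 levels were not low among the 9 arrays. Of 10 measured, 8 (80%) were lower on both arrays and 1 (10%) higher, against 33.9% and 39.6% of all genes, with medians of −1.08 and −0.97. As in any tissue homogenate, fewer cells of a type and less RNA per cell cannot be told apart. Car3, a carbonic anhydrase abundant in fat, read 10.52 and 10.59 on the hypoxic arrays against 13.19. Its second probe set read 8.23 and 8.16 against 10.34. The spread of the brightest Car3 probe set over the hypoxic pairs was wide (SE 1.49), with 5.18 and 9.73 on the hypoxic FVB/N arrays. Adipoq, the fat hormone adiponectin, read 8.11 and 8.61 against 10.42, Fabp4 10.34 and 10.07 against 11.99, and Retn (resistin) 7.54 and 7.48 against 8.85. The normoxic BL6 array held the highest level of the 9 arrays for each of these 4 genes. Lipe, the hormone-sensitive lipase, lay the other way, at 9.91 and 10.17 against 8.73. Ucp1, the marker of brown fat, did not pass the filter and read 4.53, 4.48 and 4.22. Thrsp, a regulator of fatty acid synthesis, read 7.95 and 8.10 against 9.97, with no side in SV129 (BL6 minus SV129 −1.90 ± 0.381 SE; limma adjusted p = 1).

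Heart muscle and airway secretory genes were lower mainly on array 2. Of 21 heart and skeletal muscle genes, 16 (76.2%) were lower on both arrays and 0 higher, against 33.9% and 39.6% of all genes, but the median was −1.73 on array 2 and −0.25 on array 5. Nppa, the atrial natriuretic peptide, read 5.82 and 8.48 against 11.04, and Ttn (titin) 7.12 and 7.70 against 9.33. Nppa lay between 4.90 and 6.05 on all 6 arrays of the other strains, below both BL6 array 5 and the normoxic BL6 array. Atrial Myl7, by contrast, read 11.55 and 12.88 against 12.86, with the normoxic array between the hypoxic ones. Of 14 airway secretory genes 8 (57.1%) were lower on both arrays, and 5 (35.7%) higher, with medians of −0.80 and −0.28. Bpifa1, a defence protein of the upper airway surface, read 7.89 and 11.44 against 13.76, and its relative Bpifb1 read 8.36 and 9.65 against 12.01. Muc5b, the gel-forming mucin, read 8.26 and 8.39 against 9.63, while the club cell genes Scgb1a1 (15.06 and 15.06 against 14.89) and Cyp2f2 (14.62 and 14.68 against 14.56) were near level. All 6 arrays of the other strains read Bpifa1 between 4.74 and 6.97, below all 3 BL6 arrays.

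HIF targets did not lie to 1 side. Of 27 measured HIF targets and glycolytic genes, 10 (37%) were higher on both arrays and 11 (40.7%) lower, close to the 39.6% and 33.9% of all genes, with medians of −0.02 and −0.03. Among the higher, beside Adm, were Ldha at 13.05 and 12.70 against 12.52 and Egln3, the oxygen sensor that HIF itself induces, at 6.74 and 6.59 against 6.29. Pgk1 read 12.64 and 12.03 against 11.78, but its 2 other probe sets past the filter were lower on both arrays, at 11.89 and 11.17 against 11.91 in the brighter. Ndrg1 read 12.79 on array 2 but 10.69 on array 5, against 10.42. Ddit4, at 10.03 and 9.67 against 11.10, and Hk2, at 8.33 and 9.33 against 10.03, were among the lower. Vegfa, the main vessel growth factor, had no single direction: its brightest probe set read 11.53 and 11.51 against 12.25, and its second was higher on both arrays, at 11.14 and 11.42 against 10.70. Hif1a likewise read 11.51 and 11.38 against 12.06 in its brightest probe set and was lower in a second (−0.85 and −0.69), but higher in another, at 8.82 and 8.49 against 8.15. Of these 4 genes, read through the brightest probe set, the normoxic BL6 array was the highest of the 9 arrays for Vegfa and Hk2.

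Of 30 matrix genes measured, 18 (60%) were higher on both arrays and 7 (23.3%) lower, against 39.6% and 33.9% of all genes, with small medians of 0.13 and 0.20, and 0 passed limma. Eln (elastin) read 12.28 and 11.79 against 10.91, and its second probe set 10.50 and 10.03 against 8.52. Mfap4, a microfibril protein, read 13.60 and 13.75 against 12.76, Loxl1, which cross-links elastin, 12.36 and 12.49 against 11.73, and Fbln5, which guides elastic fibre assembly, 12.62 and 12.67 against 12.15. These 4 genes were higher on both hypoxic arrays of SV129 too, Eln by 1.12 and 1.25. Other genes of the elastic fibre differed less: Lox read 11.61 and 11.89 against 11.56, Mfap5 11.57 and 11.56 against 11.42, and Fbln1 was split (−0.21 and 0.21). Col1a1 read 11.75 and 11.79 against 11.14, but its dimmer probe set was lower (−0.19 and −0.06). Dcn (decorin) was lower, at 11.94 and 11.97 against 12.71. The smooth muscle list had medians of −0.05 and 0.12 with 6 of 15 (40%) higher and 2 (13.3%) lower, and Acta2, the smooth muscle actin, was near level at 13.41 and 13.58 against 13.46.

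Endothelial and signalling genes lay on both sides. Of 25 capillary endothelial genes 10 (40%) were higher on both arrays and 10 (40%) lower, near the 39.6% and 33.9% of all genes. Calcrl, the receptor of adrenomedullin, read 12.20 and 11.99 against 13.72 (log2 −1.62 ± 0.173 SE; limma adjusted p = 0.0612), opposite to Adm, its ligand. The other Calcrl probe set past the filter was lower by less, at 11.8 and 11.67 against 12.03. Nos3, the endothelial nitric oxide synthase, read 9.43 and 10.10 against 9.02. Ednrb, an endothelin receptor, read 11.04 and 11.25 against 11.88, with a second probe set lower (−0.44 and −0.48) and another higher (0.48 and 0.44). Of 20 vascular growth factors and receptors 5 (25%) were higher and 10 (50%) lower. Among the lower, Flt1 read 9.97 and 10.04 against 10.85, with 2 of its 3 other probe sets past the filter lower as well and 1 split. The probe sets of Pdgfrb opposed each other, at 11.59 and 11.48 against 12.35 in the brighter and 10.73 and 10.58 against 10.12 in the other. Among 32 genes of BMP and TGF-beta signalling 12 (37.5%) were higher and 14 (43.8%) lower, again near the shares of all genes. Id2, a target of BMP signalling, read 10.77 and 10.56 against 12.07 in its brightest probe set but 11.48 and 11.32 against 11.15 in the next. The BMP receptor Acvr1 read 9.22 and 9.52 against 10.49 in its brightest and 8.95 and 9.34 against 8.84 in its other probe set past the filter, so neither gene had a single direction. Cxcl12, a chemokine of stromal and endothelial cells, read 12.79 and 12.61 against 11.38, the lowest level of the 9 arrays. Its receptor Cxcr4 read 10.49 and 10.77 against 11.04.

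Immune cell and stress genes were in part lower on the hypoxic BL6 arrays than on the normoxic one. Of 21 macrophage and dendritic genes 17 (81%) were lower on both arrays and 3 (14.3%) higher, against 33.9% and 39.6% of all genes. The medians were −0.41 and −0.29, so most differences were small. The list averaged 10.02 and 9.99 on the hypoxic BL6 arrays and 10.49 on the normoxic BL6 array. On the 6 arrays of FVB/N and SV129 it averaged from 9.34 to 10. Its median differences were 0.12 and −0.03 in SV129 and 0.12 and 0.13 in FVB/N. The chemokine receptor Ccr2, which marks recruited monocytes, read 8.27 and 8.29 against 10.14, with 2 of its 3 other probe sets lower too and 1 split, and the haemoglobin scavenger receptor Cd163 read 7.24 and 7.52 against 8.47. The general marker Cd68 was level, at 9.93 and 9.93 against 9.89. Of 17 glucocorticoid and stress genes 10 (58.8%) were lower and 3 (17.6%) higher, with medians of −0.49 and −0.28. Fkbp5, a steroid receptor chaperone, read 8.68 and 8.54 against 9.86 and Tsc22d3 (GILZ) 11.75 and 12.34 against 13.09, both also lower on both SV129 arrays. Sgk1, a kinase induced by glucocorticoids, was higher, at 12.96 and 12.96 against 12.51. Of 19 heat shock genes and chaperones 11 (57.9%) were higher and 3 (15.8%) lower, led by Hspa1b at 11.09 and 11.16 against 9.57, which in SV129 lay lower (−1.12 and −1.28; BL6 minus SV129 2.76, limma adjusted p = 1).

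Genes of the respiratory chain were higher mainly on array 2, the array with kidney transcripts. Of 28, 21 (75%) were higher on both arrays and 1 (3.57%) lower, against 39.6% and 33.9% of all genes, but the median was 0.43 on array 2 and 0.11 on array 5. In FVB/N, where the normoxic array carried the kidney transcripts, the list's medians were −1.01 and −0.94. Ndufv1, a subunit of complex I, read 12.33 and 11.83 against 11.47, and its 2 other probe sets were split. Cycs, cytochrome c, was the 1 gene counted as lower, at 12.60 and 11.99 against 12.93, although its next probe set read 12.64 and 11.94 against 11.87. Surfactant genes were near level: Sftpc read 14.95 and 14.95 against 14.61 and Sftpb 14.26 and 14.40 against 14.23, and of 16 genes of alveolar type 2 cells 8 (50%) were higher and 2 (12.5%) lower.

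**Figure D4:**
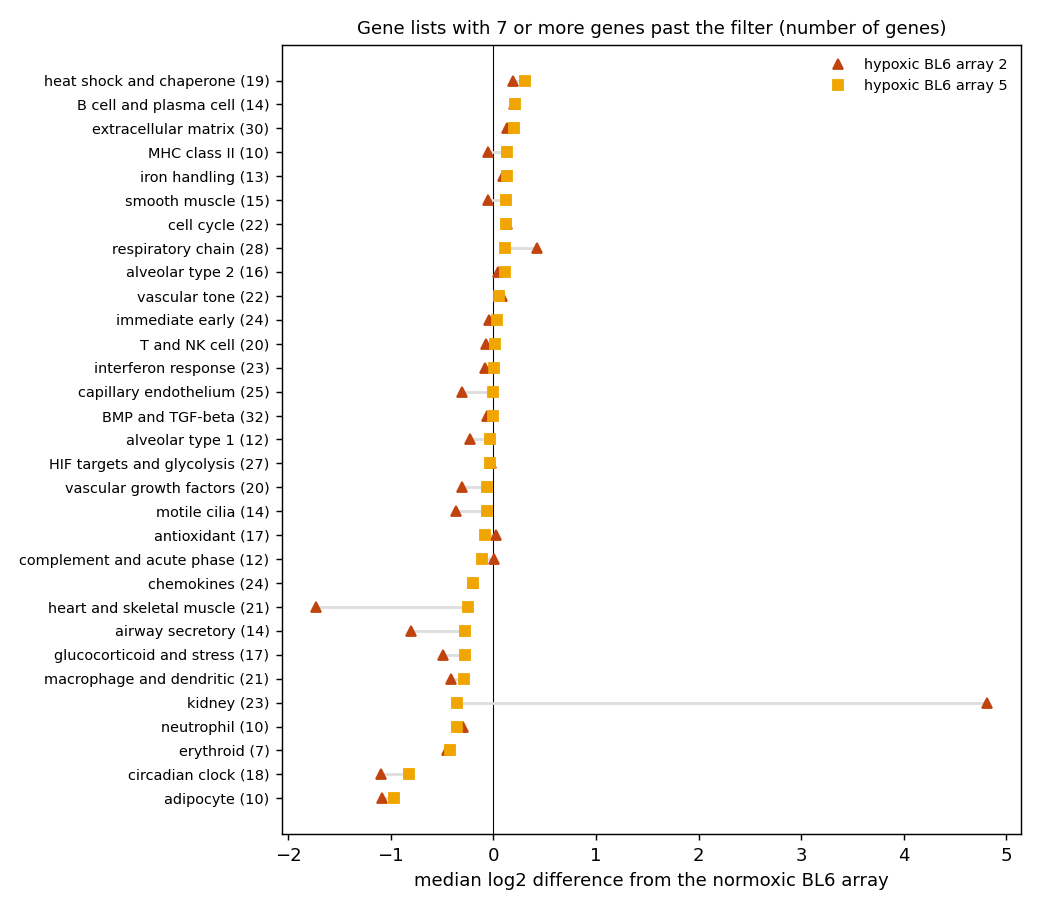
Median log2 difference of each gene list from the normoxic BL6 array, on hypoxic arrays 2 and 5, for lists with at least 7 genes past the filter (number in brackets). The adipocyte (−1.08 and −0.97) and clock (−1.09 and −0.82) lists are low on both arrays, while the kidney list (4.81 and −0.35) and the heart and skeletal muscle list (−1.73 and −0.25) differ mainly on array 2.

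Set against SV129, BL6 gave no tested difference: 0 of 27022 probe sets passed limma for BL6 change minus SV129 change (362 had an unadjusted p below 0.05), although without hypoxic BL6 array 5 there were 63 calls, 62 of them higher in BL6. The 4 genes with the smallest p, given as values only, were H2bc22, Thrsp, Aldh1a2 and Npas2. H2bc22 was higher on both hypoxic arrays in BL6 (log2 1.76) and lower on both in SV129 (−0.86). Its only probe set past the filter is of the x_at kind, which can also bind related transcripts. Aldh1a2, which makes retinoic acid, read 8.80 and 8.67 in hypoxic BL6 lung against 9.73, below every other array of the series, and was higher on both arrays in SV129 (0.67). Of the 14 higher genes of BL6, 8 were higher on both SV129 arrays and 3 lower on both. Of the 14 lower genes, 12 were lower on both and 1 (Nppa) higher on both. Among all genes, 29.2% were higher on both SV129 arrays and 28.8% lower.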

How the data were processed

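RNA came from frozen whole right lung through silica columns and was labelled with biotin by the array maker's procedure, per the labels. The deposited table gives a linear intensity for each probe set on each array, which the authors had scaled so that each array's mean without the top and bottom 2% was 500, as the values show. The sources used here do not name the software. The series' design text mentions another 12 arrays with technical difficulties, which were not analysed here.

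Groups came from the titles, pressures and times from the descriptions. Signals were transformed as log2(signal + 16) and quantile normalized over 9 arrays. From 45101 probe sets 64 controls and then the dimmest 40% were left out, which left 27022. Of 45037 probe sets, 34945 had 1 gene symbol in the platform annotation, 932 had several and 9160 none in the table used; 99.1% of gene identifiers matched RefSeq's table. limma 3.58.1 in R 4.3.3 fitted 6 groups (3 residual degrees of freedom, prior 4.53) with an intensity trend, and Benjamini-Hochberg adjusted p below 0.05 was the threshold. The fit was tested on simulated data. A first simulation, of smaller changes only, gave no calls and was replaced by a second with larger changes added. In the second, most of the smaller changes and some of the largest were not called, and a few unchanged probe sets were. The few calls in BL6 therefore say little about how many genes changed.

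Named genes were the 14 highest and 14 lowest by the smaller difference of both hypoxic BL6 arrays, genes past the threshold first, and the 4 with the smallest p against SV129; genes of the 34 lists were also described, chosen after their values were seen. The members and lists were chosen with earlier results of these data known. Array numbers limit the precision. Alternatives covered scaling, pseudocounts of 1 and 64, filters, the fit and each hypoxic array left out.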

Additional observations from a re-analysis of the deposited data

Results flagged for a closer look

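Genes were listed here when every hypoxic BL6 array lay on one side of its normoxic array and every hypoxic array of another strain on the opposite side. Of 121 genes examined, each through its brightest probe set, and 3 called probe sets of Rgcc, Ywhaz and Prss23, 6 did so against SV129 and 24 against FVB/N. The differences between strains were tested in limma and none passed: the smallest adjusted p was 1 against SV129 and 0.103 against FVB/N.

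Against SV129, the BL6 change minus the SV129 change was 3.31 for Npas2, 2.61 for H2bc22, 3.57 for Pou3f3 and 2.76 for Hspa1b, which were higher in BL6. It was −4.29 for Nppa and −1.66 for Aldh1a2, which were lower in BL6. Pou3f3 is high on the arrays with kidney transcripts, hypoxic BL6 array 2 (8.78) and normoxic FVB/N (9.96). H2bc22 and Hspa1b were read through probe sets of the x_at kind.

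The normoxic FVB/N array carried kidney transcripts, and their part in the differences from FVB/N was not tested. Against FVB/N the difference was 7.89 for Pou3f3, 6.71 for Slc5a2, 3.79 for Rnf152, 2.64 for Nfil3 and 2.04 for H2bc22. Clock genes lower in BL6 and higher in FVB/N differed by −2.58 (Per3), −2.29 (Cry1), −1.99 (Cry2) and −1.64 (Nr1d2). The HIF targets and vessel genes Ddit4, Pfkfb3, Flt1 and Vegfa differed by −1.82, −1.46, −1.15 and −1.08. Acvr1 differed by −1.46, the antimicrobial lectin Reg3g by −2.80 and the ciliary Ccdc39 by −1.89. The kidney transporter Slc12a1 differed by 12.69. The HIF targets and glycolytic genes Ndrg1, Pgk1, Ldha and Egln3, higher in BL6, differed by 3.60, 1.66, 1.18 and 0.99, and Ndufv1 of the respiratory chain by 1.71. Rgcc differed by −2.34 in the called probe set and by −1.80 in its brightest. For Vegfa, Acvr1 and Pgk1 another probe set lay on the opposite side in BL6.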

How the results depend on the processing

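No paired analysis was possible because the normoxic arrays all carry the number 1 and the hypoxic arrays the numbers 2, 5 and 6, so no number is shared by both conditions. The 4 calls for hypoxia in BL6 became 17 with the dimmest 60% left out, 22 with robust eBayes, 1 with 1 probe set per gene and 0 without the intensity trend or in the BL6 arrays alone (1 residual degree of freedom). Added after seeing the data, leaving out x_at probe sets gave 0. Leaving out probe sets at least 1 log2 unit higher on array 2 than on array 5, also added then, gave 71 (6 higher, 65 lower). That filter removes probe sets on which the hypoxic arrays differ, and the spread is estimated partly from that difference. It therefore lowers the spread by its design, and its count cannot be set against the 4. Leaving out single hypoxic arrays gave 0 to 195, as listed by array in the results. No quantile normalization, median centring and both other pseudocounts gave 4 calls each, and no filter gave 3. For BL6 change minus SV129 change the count of 0 held for 3 of 4 alternatives and was 63 without BL6 array 5 (0 to 63 over both BL6 arrays left out).

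The 74 genes higher by 1 log2 unit on both arrays became 201 without a filter, 116 with a pseudocount of 1 and 40 with 64; for probe sets 238 became 607, 370 and 112. On array 5 alone 152 genes were higher and on array 2 alone 524; the 229 lower genes became 366 and 518. Of 2195 gene values 2110 kept direction and side of the threshold, 24 lost and 53 gained the threshold, and 8 changed sign, all in genes with the normoxic array between the hypoxic ones: without BL6 array 2 and without array 5, in that order, Nr1d1 was 0.29 and −0.86, Clock 0.26 and −0.12, Acta2 0.11 and −0.05, Myl7 0.02 and −1.32, Ywhaz (brightest probe set) 0.27 and −0.08 and Fbln1 0.21 and −0.21. Fbln1 was also 0.02 without quantile normalization and 0.16 with median centring. Of 34 list medians, 12 moved by more than the spread between the hypoxic arrays with the mean of all probe sets and 12 without quantile normalization, 8 without a filter, 3 and 6 with pseudocounts of 1 and 64, and 11 and 9 without BL6 array 2 or 5. Median centring moved the median of all probe sets to 0.13, from 0.02. Precision is limited by 1 normoxic array and, for dim genes, by the pseudocount.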

Other observations

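Blood cell genes lay to different sides in BL6 lung. Of 10 neutrophil genes 6 (60%) were lower on both hypoxic arrays and 1 (10%) higher, against 33.9% and 39.6% of all genes, with S100a8, a calcium-binding alarmin, at 10.72 and 10.45 against 11.80. Of 14 B cell and plasma cell genes 9 (64.3%) were higher and 2 (14.3%) lower, with medians of 0.20 and 0.21, while Jchain, the joining chain of secreted IgA and IgM, was low at 7.45 and 7.01 against 9.0. Of 7 erythroid genes 5 (71.4%) were lower and 1 (14.3%) higher, with medians of −0.45 and −0.42, and Hbb-b2, a beta globin, read 8.22 and 8.0 against 9.24.

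Of 13 iron genes 7 (53.8%) were higher and 4 (30.8%) lower, against 39.6% and 33.9% of all genes. Aco1, the iron-responsive aconitase, had no single direction: its brightest probe set, of the x_at kind, read 10.41 and 10.01 against 11.89, and its other probe set past the filter 10.85 and 10.24 against 9.99. Hamp, the iron hormone hepcidin, read 8.23 and 8.69 against 9.95. Of 14 genes of motile cilia 8 (57.1%) were lower and 1 (7.14%) higher, against 33.9% and 39.6% of all genes. Ccdc39, needed to assemble ciliary dynein arms, read 7.63 and 7.71 against 9.15, while Tppp3 read 12.95 and 13.12 against 12.84.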
